A study of Homo sapiens with 4 samples.

Results

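The genes of the WNT pathway were examined as a module in IMR-32, an established MYCN-amplified human neuroblastoma cell line, after knockdown of the transcription factor NeuroD1. Genes were chosen by symbol and a count minimum, with earlier results of these data known. They were the WNT ligands, the FZD receptors, the SFRP and DKK inhibitors, and LRP5, LRP6, AXIN1, AXIN2, LEF1, TCF7, TCF7L1, TCF7L2, RNF43, ZNRF3, NKD1, NKD2, APC and CTNNB1, with at least 10 read counts summed over the 4 libraries. Of 60612 genes in the count table, 51 had such a symbol and 36 reached the minimum. The 36 genes were 10 ligands, 12 receptors, 4 secreted inhibitors, 4 genes of the β-catenin destruction complex with CTNNB1 itself, 3 TCF/LEF factors and 3 feedback inhibitors.

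The series compared 2 RNA sequencing (RNAseq) libraries of cells with a control hairpin (shControl) with 2 libraries of cells with a hairpin against NeuroD1 (shNeuroD1). Both groups were IMR-32 cells that stably carried a short hairpin RNA, and both received doxycycline (1 µg/mL for 48 h) to switch the hairpin on. The control hairpin is described in the study's methods as scrambled, although the genotype label of these libraries is WT and the series text calls them parental. The study used more than 1 NeuroD1 hairpin, and the labels do not say which these libraries carried, so the numbers in the titles were read as replicate numbers. With no rescue among the libraries analysed here, an effect of a particular hairpin and an effect of lower NeuroD1 cannot be told apart. The labels also do not say that the 2 libraries of a group came from separate cultures, so the p-values below measure only the spread between these libraries.

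WNT proteins are secreted, lipid-modified ligands that bind Frizzled (FZD) receptors. In the canonical branch, a Frizzled receptor pairs with LRP5 or LRP6 and stops the destruction complex of APC, AXIN1 and AXIN2 from degrading β-catenin, the product of CTNNB1, which then works in the nucleus with TCF/LEF factors. Other branches signal through Frizzled receptors without β-catenin and direct cell movement and polarity. WNT signals induce the neural crest, the embryonic tissue from which neuroblastoma arises, and guide its migration.

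Library totals lay between 14665210 and 16482463 counts, and each library held 17991 to 19943 counts in the 36 genes. NEUROD1, the targeted gene, stood at 416.7 ± 3.10 in the control libraries and at 60.9 ± 3.90 after knockdown, in counts scaled to library size (CPM, mean ± SD, n = 2 each). All 9 adrenergic neuroblastoma markers examined had counts, with a summed level of 4026 and 3921 CPM in shControl and 3584 and 3566 CPM in shNeuroD1. TH and DBH, which make catecholamines, were low. TH was called higher, at 0.678 and 1.26 CPM in shControl and 5.78 and 5.19 CPM in shNeuroD1 (log2 fold change 2.48, SE 0.288, edgeR adjusted p 8.3e-09), and DBH lower, at 1.56 and 1.51 against 0.789 and 0.722 CPM (log2 fold change -1.01, SE 0.406, edgeR adjusted p 0.0342). Of 8 mesenchymal neuroblastoma markers 7 had counts (80.7 and 87.2 CPM summed in shControl, 68.4 and 68.8 CPM in shNeuroD1), and PRRX1 was at 0. The 5 Schwann cell markers summed to 5.43 and 5.42 CPM in shControl and 8.74 and 10.1 CPM in shNeuroD1. The 4 leukocyte markers summed to 0.441 to 0.657 CPM with CD3E at 0, and the 4 epithelial markers summed to 0 and 0.126 CPM in shControl and 1.84 and 1.38 CPM in shNeuroD1 with KRT5 and CDH1 at 0. The part of these marker changes in the results below was not tested.

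Knockdown of NeuroD1 was accompanied by lower mRNA of all 3 TCF/LEF factors, WNT11, FZD7, ZNRF3, CTNNB1 and APC. Higher mRNA was seen for all 4 secreted inhibitors of the module, 7 of the 11 receptors tested, WNT2B and NKD2. Both lists use the edgeR adjusted p alone. In DESeq2, APC, WNT2B, SFRP5, FZD1, FZD2, FZD9 and LRP5 did not pass the adjusted p. A gene was said to rise or fall where its edgeR adjusted p was under 0.05, and was called where the log2 fold change (shNeuroD1 against shControl) was also beyond 1 in size. Of the 36 genes, 33 had enough counts to be tested. Of these, 5 were called lower (15.2%), beside 5.14% of all 17537 genes tested, and 3 were called higher (9.09%), beside 8.79% of all genes. By adjusted p alone, 8 fell (24.2%), beside 28.2% of all genes, and 13 rose (39.4%), beside 26.8% of all genes. The libraries of the groups did not overlap in CPM for 24 of the 33 genes, and the same held for 76.1% of all genes. The median log2 fold change of the 33 genes was 0.02, beside 0.0084 for all genes.

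**Figure D1:**
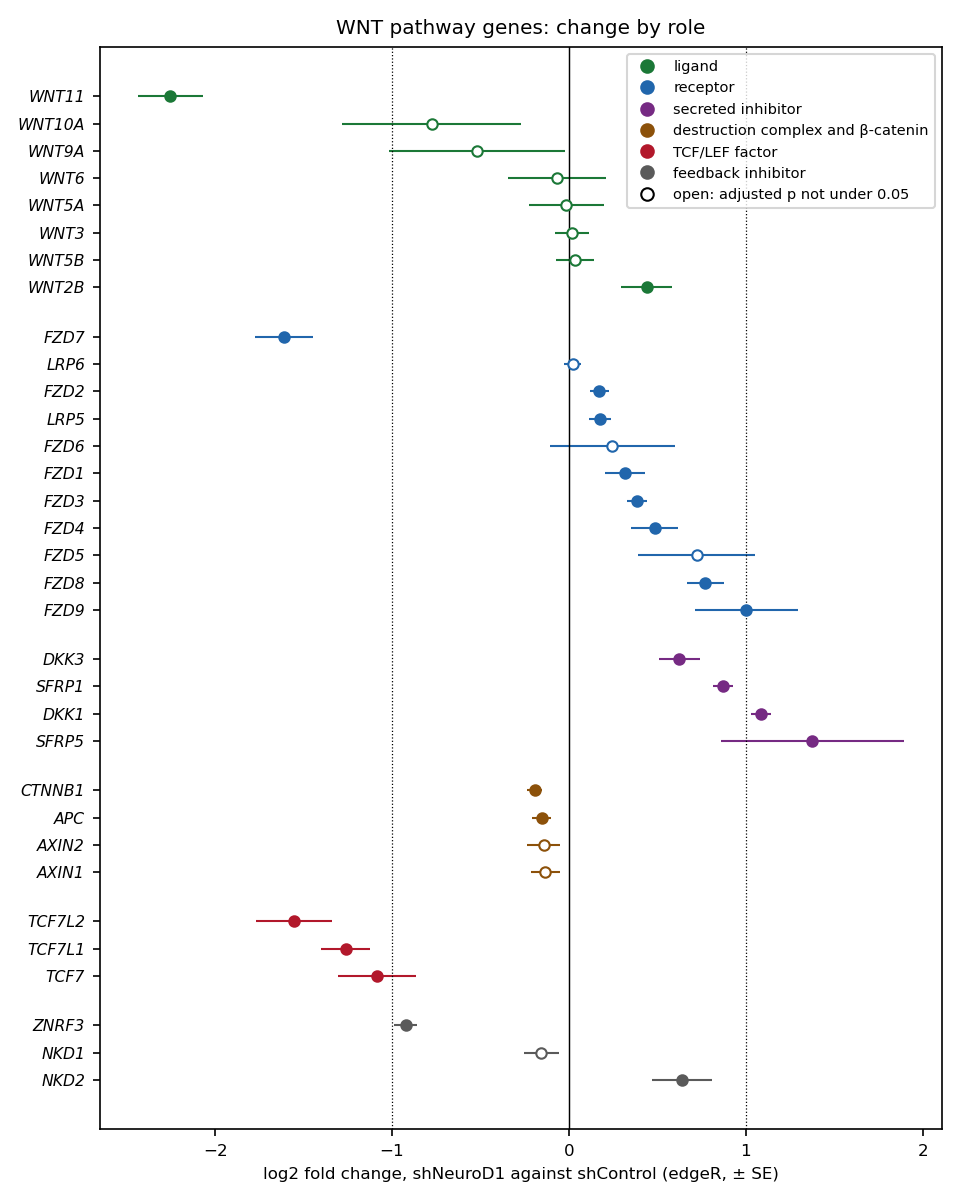
Log2 fold change of the 33 tested WNT pathway genes (horizontal axis, shNeuroD1 against shControl, bars ± SE from edgeR), grouped and coloured by role. Filled points had an adjusted p under 0.05, open points did not, and dotted lines mark a log2 fold change of 1 in either direction. The TCF/LEF factors lie between -1.56 and -1.09, the secreted inhibitors between 0.63 and 1.38, and 10 of 11 receptors lie to the right of 0.

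The ligands were examined first. Of 19 WNT genes in the count table, 10 reached the minimum, 3 were listed at 0 in every library (WNT2, WNT7A and WNT8A), and WNT1, WNT16, WNT3A, WNT4, WNT7B and WNT9B had 1 to 4 counts in all. WNT11, a ligand best known for the noncanonical branch and for cell movement in the early embryo, was the ligand that fell. WNT11 (ENSG00000085741, chromosome 11, 76186325 to 76210736, minus strand) had counts of 184 and 181 in shControl, against 35 and 41 in shNeuroD1, which are 12.5, 11.4, 2.30 and 2.69 CPM. Both shControl libraries were above both shNeuroD1 libraries, with the shNeuroD1 mean at 20.9% of the shControl mean. Its log2 fold change came to -2.25 (SE 0.184, edgeR adjusted p 3.6e-12), the lowest of the 33 genes tested. WNT11 shares 204 exon bases with AP000785.1, an antisense gene with 2 to 9 counts per library, and the use of strand in counting is not given in the sources used here.

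WNT2B was the ligand that rose, from 7.60 and 10.2 CPM in shControl to 12.5 and 11.8 CPM in shNeuroD1 (log2 fold change 0.44, SE 0.145, edgeR adjusted p 0.0107). Its groups did not overlap. However, WNT2B shares 2661 exon bases with ST7L on the opposite strand, so its counts are uncertain, and its fold change turned to -0.12 when the deposited FPKM values were tested in place of counts. Over the libraries, 88.0% to 98.1% of that FPKM lay at a start upstream of the annotated gene. DESeq2 gave WNT2B an adjusted p of 0.10. The 6 remaining ligands tested did not pass. WNT3 (log2 fold change 0.02), WNT5B (0.03), WNT5A (-0.01) and WNT6 (-0.07) had 31 to 391 counts per library. WNT9A (-0.52) and WNT10A (-0.78) had only 7 to 15. WNT5A and WNT6 were the ligands here whose direction turned, to 0.10 and 0.046, under scaling by library size alone. WNT10B, with 6, 7, 9 and 14 counts, and WNT8B, with 2, 1, 5 and 7 counts, were too low to be tested, and the shNeuroD1 libraries held the higher counts for both.

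WNT3 and WNT5B had similar counts in both groups but differed in where their listed transcripts started. The deposited FPKM tables give a value for each transcript start, and the values below are a description, since 2 libraries against 2 cannot reach an exact permutation p under 0.05. Both genes were picked with these values known. Listed starts also differed between libraries of the same group. The AXIN1 start at 352673 of chromosome 16 carried 97.8% and 98.5% of its FPKM in shControl, and 0% and 100% in shNeuroD1. For CTNNB1, the start at 41199389 of chromosome 3 carried 70.1% and 98.8% in shControl, and 79.0% and 88.8% in shNeuroD1. WNT5B, a ligand close in sequence to WNT5A, had starts listed at 1629897 and 1630812 of chromosome 12, where GENCODE 29 annotates a noncoding processed transcript and a protein-coding transcript. The downstream start at 1630812 carried 27.9% and 19.1% of the WNT5B FPKM in shControl and 61.9% and 59.9% in shNeuroD1. The start at 1629897 carried 65.2% and 80.9% in shControl and 37.5% and 39.1% in shNeuroD1. Neither share overlapped between the groups, while the counts of the whole gene were 255, 266, 278 and 252.

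WNT3, a canonical ligand of the early embryo, had its start at 46818692 of chromosome 17 listed at 4.86 and 3.40 FPKM in the shNeuroD1 libraries and not listed in either shControl library. That position is the RefSeq start of WNT3. The shControl libraries instead listed low starts inside the gene, at 0.840 and 0.660 FPKM. WNT11 showed the opposite pattern, with its single listed start, at 76210736 of chromosome 11, at 1.96 and 2.14 FPKM in the shControl libraries and unlisted in both shNeuroD1 libraries. With FPKM summed per start, WNT3 and WNT11 were the genes, among the 23 with listed starts, that had a start at 1 FPKM or more in both libraries of a group and unlisted in the other. WNT3 counts were 344 and 370 in shControl and 391 and 327 in shNeuroD1, and these overlapped. A test of FPKM called WNT3 higher (log2 fold change 1.54, limma adjusted p 0.044), which the counts did not (edgeR adjusted p 0.902).

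**Figure D2:**
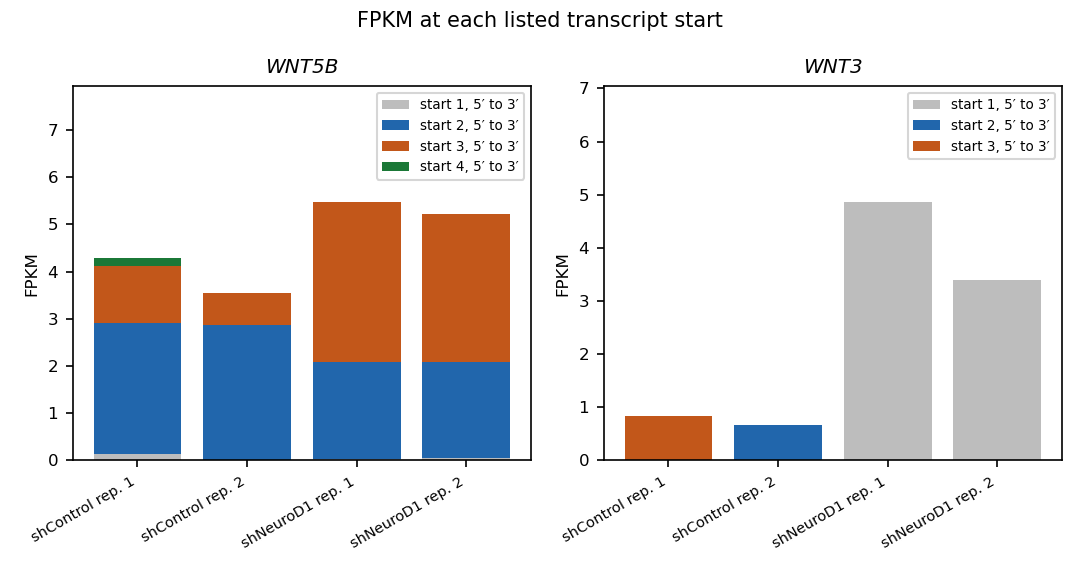
FPKM at each listed transcript start of WNT5B (left) and WNT3 (right) in the 4 libraries, stacked, with starts numbered from 5′ to 3′ along each gene. For WNT5B the third start takes 61.9% and 59.9% of the bar in shNeuroD1 and 27.9% and 19.1% in shControl, and for WNT3 the first start is present in the shNeuroD1 libraries alone.

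Among the 11 receptors tested, FZD7 was the only one that fell. FZD7, a Frizzled receptor of stem and progenitor cells (ENSG00000155760, chromosome 2, 202034587 to 202038445, plus strand), had counts of 187 and 273 in shControl, against 81 and 68 in shNeuroD1. In CPM these were 12.7 and 17.2 against 5.32 and 4.47. The groups did not overlap, with shControl replicate 2 the highest of the 4 libraries, and FZD7 fell (log2 fold change -1.61, SE 0.164, edgeR adjusted p 4.9e-10). FZD10 also had more counts in shControl, 13 and 9 against 1 and 3, but was too low to be tested. Without a filter on low counts it was called lower.

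In contrast, 7 receptors rose. FZD9, with low counts of 26, 22, 54 and 42, stood at 1.76 and 1.39 CPM in shControl and 3.55 and 2.76 CPM in shNeuroD1, with no overlap. Its log2 fold change came to 1.00 (SE 0.292, edgeR adjusted p 0.00423), at the edge of the threshold, and its adjusted p was 0.062 in DESeq2. FZD8 rose more evenly, from 13.4 and 14.1 CPM to 23.5 and 23.5 CPM (log2 fold change 0.77, SE 0.104, edgeR adjusted p 1.5e-07). FZD4 (0.48), FZD3 (0.38), FZD1 (0.32) and FZD2 (0.17) rose by less. In DESeq2, FZD3, FZD4 and FZD8 rose, and FZD1 (adjusted p 0.14), FZD2 (0.077) and LRP5 (0.13) did not pass. FZD4 shares 1399 exon bases with PRSS23 on the opposite strand, so its counts are uncertain. FZD5 (0.72, edgeR adjusted p 0.0661) and FZD6 (0.25, edgeR adjusted p 0.581) did not pass, on 19 to 55 counts per library. FZD5 counts were 19 and 31 in shControl and 55 and 27 in shNeuroD1, so its groups overlapped.

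The LRP co-receptors moved little. LRP6 had counts of 2299 and 2563 in shControl, against 2411 and 2489 in shNeuroD1, or 156.0, 161.4, 158.5 and 163.5 CPM. The groups overlapped, and the log2 fold change came to 0.02 (SE 0.0464, edgeR adjusted p 0.736), or 0.13 (edgeR adjusted p 0.016) when library size was the only scaling. LRP5 had counts of 851 and 955 in shControl, against 981 and 1044 in shNeuroD1, or 57.7, 60.1, 64.5 and 68.6 CPM. Both shNeuroD1 libraries were above both shControl libraries, and LRP5 rose (log2 fold change 0.17, SE 0.0611, edgeR adjusted p 0.0163).

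All 4 secreted inhibitors of the module, which are SFRP and DKK genes chosen by symbol, rose. Inhibitors outside that rule, from the linked genes taken up below, did not all rise. FRZB, a member of the SFRP family that the rule misses because of its symbol (log2 fold change -1.23), was called lower. NOTUM, which removes the WNT lipid (-1.18), was called lower as well. APCDD1 (-0.60) and SERPINF1 (-0.26), picked with their values known, also fell, by less than the fold threshold. SOSTDC1, a secreted antagonist (1.72), was called higher, on low counts of 2 and 7 in shControl and 19 and 11 in shNeuroD1. DKK1, which binds LRP5 and LRP6 and blocks canonical signalling (ENSG00000107984, chromosome 10, 52314296 to 52318042, plus strand), had counts of 807 and 804 in shControl, against 1677 and 1727 in shNeuroD1. Its level was 54.8 and 50.6 CPM in shControl and 110.2 and 113.4 CPM in shNeuroD1. The shNeuroD1 libraries were both far above the shControl libraries and close to each other, with a mean at 212% of shControl, and DKK1 rose (log2 fold change 1.09, SE 0.0576, edgeR adjusted p 8.0e-17). Of the DKK1 FPKM, 81.8% to 92.0% began at the RefSeq start in every library, so the sequence before that start is printed here. It is 250 bases of the plus strand at chr10:52314031-52314280 (RefSeq, GRCh38.p14), 5′ to 3′, with TATAAA in capitals, a motif held on either strand by 10.7% of 35116 RefSeq promoter windows of this length.
DKK1: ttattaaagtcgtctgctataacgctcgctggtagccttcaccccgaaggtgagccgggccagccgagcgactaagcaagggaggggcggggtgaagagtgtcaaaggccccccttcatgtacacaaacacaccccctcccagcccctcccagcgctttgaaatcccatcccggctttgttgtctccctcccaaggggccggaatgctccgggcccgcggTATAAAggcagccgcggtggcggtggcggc
The window holds no CANNTG, the E-box core that basic helix-loop-helix factors such as NeuroD1 bind, which 61.8% of all windows hold. The study mapped NeuroD1 binding in IMR-32 cells by chromatin immunoprecipitation sequencing. Those data were not examined here, so binding of NeuroD1 at DKK1 was not tested.

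SFRP1, a secreted decoy that binds WNT proteins, had counts of 875 and 965 in shControl, against 1736 and 1613 in shNeuroD1, or 59.4, 60.8, 114.1 and 105.9 CPM. The groups were well apart and SFRP1 rose (log2 fold change 0.87, SE 0.0568, edgeR adjusted p 1.5e-14), short of the fold threshold. DKK3, a divergent member of the DKK family, rose from 15.5 and 12.1 CPM to 21.1 and 21.3 CPM (log2 fold change 0.63, SE 0.115, edgeR adjusted p 2.5e-05). SFRP5 rested on counts of 8 and 5 in shControl, against 12 and 22 in shNeuroD1. Its groups did not overlap and its log2 fold change came to 1.38 (SE 0.516, edgeR adjusted p 0.0241), but DESeq2 gave an adjusted p of 0.17. DKK2 was listed at 0 in every library, and DKK4, SFRP2 and SFRP4 had 1 to 3 counts in all.

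**Figure D3:**
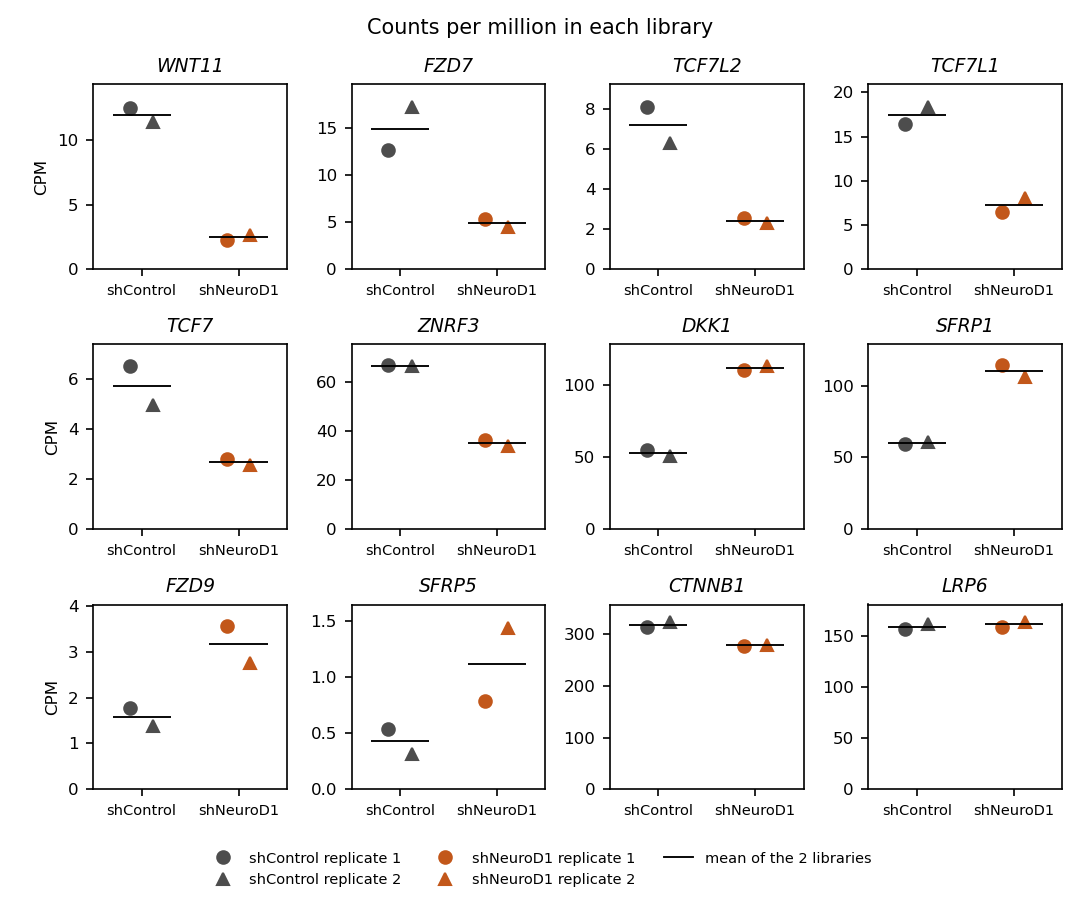
CPM in each library (vertical axes, each starting at 0) for 12 WNT pathway genes, with shControl in grey and shNeuroD1 in orange, circles for replicate 1, triangles for replicate 2 and lines for the mean of the 2 libraries. WNT11, FZD7, the TCF/LEF factors and ZNRF3 are lower in both shNeuroD1 libraries, DKK1, SFRP1, FZD9 and SFRP5 are higher in both, and LRP6 overlaps between the groups.

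The destruction complex and β-catenin changed by small amounts. CTNNB1 had counts of 4635 and 5123 in shControl, against 4226 and 4249 in shNeuroD1, or 314.5, 322.6, 277.8 and 279.0 CPM. Both shNeuroD1 libraries were below both shControl libraries, with a mean at 87.4% of shControl (log2 fold change -0.19, SE 0.0419, edgeR adjusted p 0.000206). APC, the scaffold of the complex, had counts of 1495 and 1728 in shControl, against 1400 and 1480 in shNeuroD1, or 101.4, 108.8, 92.0 and 97.2 CPM. Its groups did not overlap either, and APC fell (log2 fold change -0.15, SE 0.0539, edgeR adjusted p 0.0169). When library size was the only scaling, the median log2 fold change of all genes moved to 0.12, and this took CTNNB1 to -0.08 (edgeR adjusted p 0.095) and APC to -0.04 (edgeR adjusted p 0.55). DESeq2 gave APC an adjusted p of 0.10.

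The AXIN scaffolds did not pass the test. AXIN1 had counts of 437 and 516 in shControl, against 426 and 437 in shNeuroD1, or 29.6, 32.5, 28.0 and 28.7 CPM (log2 fold change -0.13, SE 0.0833, edgeR adjusted p 0.178). AXIN2, itself a widely used target of β-catenin signalling, had counts of 388 and 512 in shControl, against 390 and 419 in shNeuroD1, or 26.3, 32.2, 25.6 and 27.5 CPM (log2 fold change -0.14, SE 0.0926, edgeR adjusted p 0.195). The AXIN2 libraries overlapped, with shControl replicate 2 the highest of the 4, and the fold change was 0.014 without that library.

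The TCF/LEF factors fell together. These are the DNA-binding partners of β-catenin, which repress their targets in its absence. TCF7L2 (ENSG00000148737, chromosome 10, 112950250 to 113167678, plus strand) had counts of 119 and 100 in shControl, against 39 and 35 in shNeuroD1, or 8.07, 6.30, 2.56 and 2.30 CPM. TCF7L1 (ENSG00000152284, chromosome 2, 85133410 to 85310388, plus strand), known mainly as a repressor, had counts of 242 and 292 in shControl, against 98 and 123 in shNeuroD1, or 16.4, 18.4, 6.44 and 8.08 CPM. TCF7 (ENSG00000081059, chromosome 5, 134114711 to 134151865, plus strand) had counts of 96 and 79 in shControl, against 43 and 39 in shNeuroD1, or 6.51, 4.97, 2.83 and 2.56 CPM. For each of the 3 factors both shNeuroD1 libraries were below both shControl libraries.

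The fall was deepest for TCF7L2, to 33.8% of the shControl mean (log2 fold change -1.56, SE 0.214, edgeR adjusted p 2.3e-07). TCF7L1 stood at 41.7% (log2 fold change -1.26, SE 0.138, edgeR adjusted p 2.3e-09) and TCF7 at 46.9% (log2 fold change -1.09, SE 0.221, edgeR adjusted p 0.000104). TCF7 lay close to the fold threshold, at -0.97 under scaling by library size alone and at -0.88 without shControl replicate 1. TCF7 shares 210 exon bases with SKP1 on the opposite strand, which had 2946 to 3277 counts per library, so part of the TCF7 counts is uncertain. LEF1 was listed at 0 in every library.

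The sequences before the starts of the TCF/LEF genes are printed because these genes fell together. Each is 250 bases of the plus strand, 5′ to 3′, from RefSeq (GRCh38.p14), with CANNTG and TATAAA in capitals on either strand. They cover every start that the RefSeq table gives for these genes, at chr2:85133142-85133391 (TCF7L1), chr10:112949997-112950246, chr10:113126383-113126632 and chr10:113129021-113129270 (TCF7L2, upstream, middle and downstream start), chr5:134115363-134115612 (TCF7, upstream start) and chr5:134123368-134123617 (TCF7, downstream start).
TCF7L1: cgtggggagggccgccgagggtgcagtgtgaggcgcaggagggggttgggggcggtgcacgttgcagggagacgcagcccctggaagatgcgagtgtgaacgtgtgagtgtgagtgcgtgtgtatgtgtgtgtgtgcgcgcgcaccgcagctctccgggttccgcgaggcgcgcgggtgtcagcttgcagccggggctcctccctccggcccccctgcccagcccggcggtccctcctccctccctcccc
TCF7L2 upstream start: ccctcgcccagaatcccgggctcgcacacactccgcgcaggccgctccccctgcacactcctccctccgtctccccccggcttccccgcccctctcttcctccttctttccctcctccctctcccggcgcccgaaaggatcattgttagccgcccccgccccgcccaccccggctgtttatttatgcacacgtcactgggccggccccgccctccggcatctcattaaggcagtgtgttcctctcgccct
TCF7L2 middle start: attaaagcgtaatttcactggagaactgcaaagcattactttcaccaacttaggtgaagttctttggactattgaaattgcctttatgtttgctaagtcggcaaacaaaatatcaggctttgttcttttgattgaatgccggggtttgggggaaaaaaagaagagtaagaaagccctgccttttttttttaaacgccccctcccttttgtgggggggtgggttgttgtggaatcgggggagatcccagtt
TCF7L2 downstream start: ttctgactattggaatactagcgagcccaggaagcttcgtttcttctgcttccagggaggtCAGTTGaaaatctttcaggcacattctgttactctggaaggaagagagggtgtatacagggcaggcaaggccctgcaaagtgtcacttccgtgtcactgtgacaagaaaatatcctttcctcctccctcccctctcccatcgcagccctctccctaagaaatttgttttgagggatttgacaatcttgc
TCF7 upstream start: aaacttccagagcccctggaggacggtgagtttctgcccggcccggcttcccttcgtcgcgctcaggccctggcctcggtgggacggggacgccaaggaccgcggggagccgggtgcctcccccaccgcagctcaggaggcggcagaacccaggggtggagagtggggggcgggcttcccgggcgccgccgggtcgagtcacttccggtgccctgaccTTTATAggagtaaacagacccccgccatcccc
TCF7 downstream start: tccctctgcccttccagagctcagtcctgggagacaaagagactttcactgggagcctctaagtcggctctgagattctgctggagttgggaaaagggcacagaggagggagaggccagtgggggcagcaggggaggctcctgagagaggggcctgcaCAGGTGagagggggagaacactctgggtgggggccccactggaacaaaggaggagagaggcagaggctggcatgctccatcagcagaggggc
The TCF7L1 window and the upstream and middle TCF7L2 windows hold neither motif, and the downstream TCF7L2 window holds 1 E-box, CAGTTG. The upstream TCF7 window holds TATAAA, read on the opposite strand, and the downstream TCF7 window holds 1 E-box, CAGGTG. The TCF7L1 start printed here carried 96.6% to 99.3% of TCF7L1 FPKM in the 4 libraries, whereas the shares for TCF7L2 and TCF7 rest on a mean of 0.793 and 0.599 FPKM and are not given. Over all 36 genes, 23 had 30 such windows in the RefSeq table, of which 15 held the E-box core. The TCF/LEF motif CTTTGAT was in 0 of the 30 windows and in 2.26% of all windows.

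The feedback inhibitors dampen WNT signalling and are often induced by it. ZNRF3, a membrane ubiquitin ligase that removes Frizzled receptors from the cell surface, had counts of 986 and 1057 in shControl, against 553 and 518 in shNeuroD1, or 66.9, 66.6, 36.4 and 34.0 CPM. The libraries of each group lay close together and the groups far apart, and ZNRF3 fell to 52.7% of shControl (log2 fold change -0.92, SE 0.0667, edgeR adjusted p 2.0e-13). NKD2, which binds Dishevelled, had counts of 70 and 94 in shControl, against 130 and 124 in shNeuroD1, or 4.75, 5.92, 8.55 and 8.14 CPM, and rose (log2 fold change 0.64, SE 0.171, edgeR adjusted p 0.00197).

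NKD1, the close relative of NKD2, had counts of 300 and 341 in shControl, against 296 and 276 in shNeuroD1, or 20.4, 21.5, 19.5 and 18.1 CPM. Its groups did not overlap but the difference did not pass the test (log2 fold change -0.16, SE 0.10, edgeR adjusted p 0.194). RNF43, the ligase related to ZNRF3, was listed at 0 in every library. It shares 4326 exon bases with the overlapping gene AC004687.2 on the same strand, which had 3, 12, 4 and 7 counts, so the value of RNF43 is uncertain.

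Levels were then compared between genes per length, as CPM per kilobase of annotated exon. The length counts every exon base annotated for a gene in any transcript, retained introns included, so the order depends on the annotation. CTNNB1 had 11927 such bases and FZD2 had 2112, at mean shControl levels of 318.5 and 82.3 CPM. In shControl, FZD2 was highest at 39.0 ± 0.610 (SD, n = 2), followed by CTNNB1 at 26.7 ± 0.483, DKK1 at 23.9 ± 1.32, LRP6 at 15.4 ± 0.371 and SFRP1 at 12.6 ± 0.209. These neighbours did not overlap between their libraries. In shNeuroD1, DKK1 was first at 50.7 ± 1.02, ahead of FZD2 at 43.9 ± 0.322, and SFRP1 at 23.1 ± 1.22 stood beside CTNNB1 at 23.3 ± 0.0737, which SFRP1 overlapped. WNT11 was 12th of the 36 genes per length in shControl and 24th in shNeuroD1. By CPM per kilobase, the highest ligands in shControl were WNT3 at 5.38 ± 0.00625 and WNT11 at 4.97 ± 0.320. The TCF/LEF factors were led in both groups by TCF7L1, at 3.94 ± 0.316 in shControl and 1.64 ± 0.262 in shNeuroD1. FPKM values, listed for 23 of the 36 genes, placed CTNNB1 first and DKK1 second in shControl and reversed them in shNeuroD1, and FZD2 was not among the genes listed. The order of the ligands differed between the scales. In shControl FPKM, WNT2B at 7.82 and 7.68 and WNT5B at 4.28 and 3.54 stood above WNT11 at 1.96 and 2.14, and WNT3 stood at 0.840 and 0.660. Of the WNT2B FPKM in shControl, 98.1% and 93.7% lay at a start upstream of the annotated gene, so its place is uncertain.

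**Figure D4:**
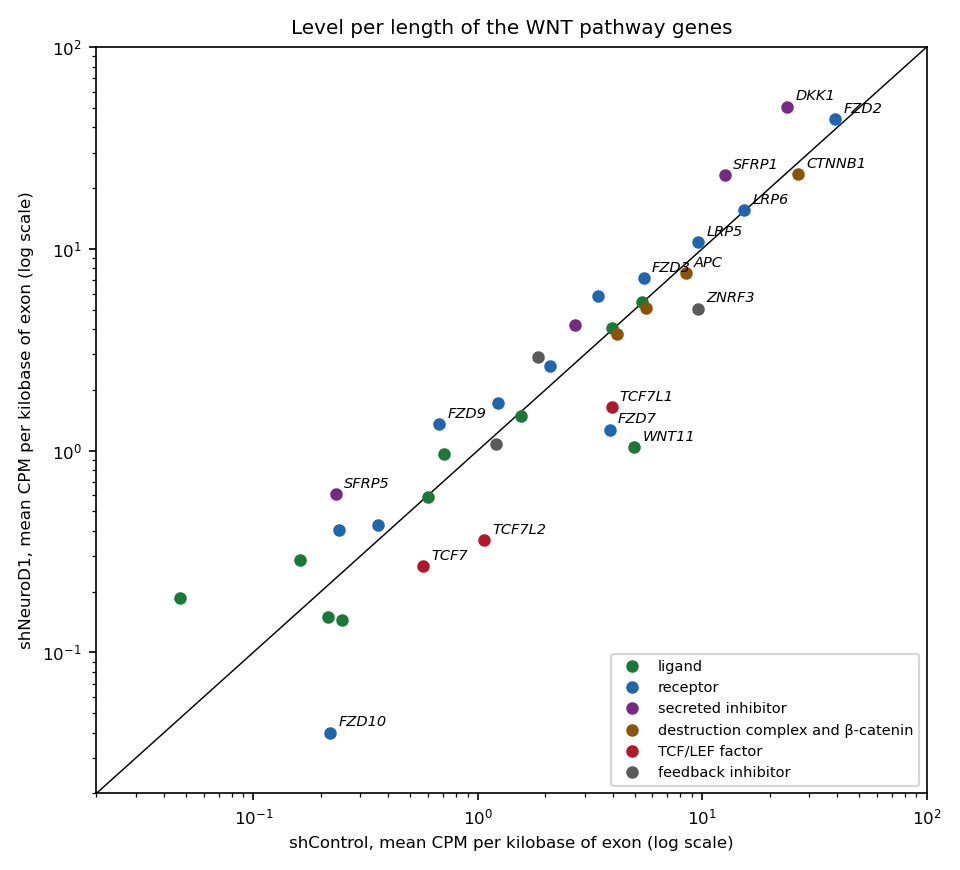
Mean CPM per kilobase of annotated exon in shControl (horizontal, log scale) and shNeuroD1 (vertical, log scale), 1 point per WNT pathway gene, coloured by role, with the line of equal level. DKK1 and SFRP1 lie above the line among the highest genes, and WNT11, FZD7 and the TCF/LEF factors lie below it.

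The 33 genes work with many others, and 111 linked WNT genes in 5 lists were examined beside them. Of the 97 tested, 34 fell and 28 rose, of which 8 were called lower and 8 higher. Over all genes, 28.2% fell and 26.8% rose, and 13.9% were called in either direction, and the counts for each list below stand beside these shares. Among 16 tested genes of secretion and the extracellular space, 8 fell and 3 rose. KREMEN1, a receptor that works with DKK proteins to remove LRP6, fell from 254.4 and 263.5 CPM to 64.4 and 64.6 CPM (log2 fold change -2.01, SE 0.0496, edgeR adjusted p 2.3e-25). GPC4, a heparan sulfate proteoglycan (-1.52), and LGR5, a receptor for R-spondins (-1.25), also fell on low counts. On the other side, PORCN, the enzyme that attaches the lipid to WNT proteins, rose from 8.55 and 7.31 CPM to 23.0 and 22.9 CPM (log2 fold change 1.53, SE 0.121, edgeR adjusted p 1.7e-12), and SOSTDC1, a secreted antagonist, rose by 1.72 on 0.136 to 1.25 CPM. WLS, which carries WNT proteins to the cell surface and was picked with its values known, fell from 142.6 and 137.3 CPM to 69.2 and 69.8 CPM (log2 fold change -1.01, SE 0.0524, edgeR adjusted p 4.6e-17). FRZB (-1.23) and NOTUM (-1.18), an SFRP family member and an enzyme that removes the WNT lipid, were the other genes of this list called lower. Both were also picked with their values known.

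Inside the cell, 7 of 25 genes of the wider destruction complex and the Dishevelled proteins fell and 8 rose. DACT1, a Dishevelled-binding protein, fell from 29.7 and 27.5 CPM to 5.72 and 7.09 CPM (log2 fold change -2.16, SE 0.123, edgeR adjusted p 5.1e-16), and AMER2, a membrane partner of APC, rose by 1.09. Of 19 nuclear cofactors, 6 fell and 4 rose, and TLE1, a corepressor that binds TCF/LEF factors, fell by 1.21 on the log2 scale. Among 24 tested genes of the planar polarity and noncanonical branches, 9 fell and 6 rose, and CAMK2B, a calcium-dependent kinase subunit, rose from 3.60 and 3.46 CPM to 19.7 and 18.5 CPM (log2 fold change 2.43, SE 0.150, edgeR adjusted p 4.0e-15).

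The textbook targets of β-catenin and TCF moved in both directions. Of the 16 tested, 7 fell and 7 rose. LGR5 and NOTUM were called lower. MSX2, a homeobox factor, rose from 3.32 and 3.15 CPM to 24.7 and 26.5 CPM (log2 fold change 2.98, SE 0.142, edgeR adjusted p 5.3e-18). TNFRSF19, a receptor of the tumour necrosis factor family (1.67), and SOX9, a neural crest and glial factor (1.54), were called higher as well. The median log2 fold change of the 16 was 0.20. Among the other linked lists it ranged from -0.44 for secretion and extracellular genes to 0.0050 for the destruction complex and the Dishevelled proteins.

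**Figure D5:**
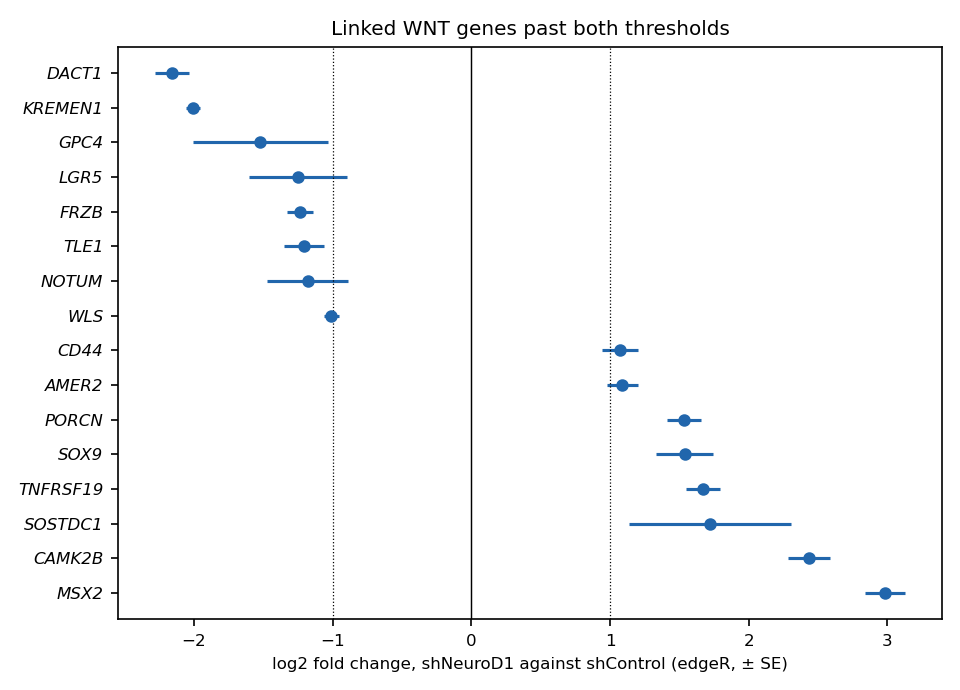
Log2 fold change (horizontal axis, shNeuroD1 against shControl, bars ± SE from edgeR) of the 16 linked WNT genes past both thresholds, ordered from lowest to highest, with dotted lines at a log2 fold change of 1 in either direction. DACT1 and KREMEN1 lie lowest at -2.16 and -2.01, and CAMK2B and MSX2 highest at 2.43 and 2.98.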

How the data were processed

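RNA was measured in 4 libraries of IMR-32 cells, grouped by their titles. The authors deposited raw read counts per Ensembl gene, and, for each library, FPKM values, which correct fragments for transcript length and sequencing depth, of transcript starts, ends and splicing events. Per the submitters' processing notes, cutadapt 1.9.1, HISAT2 2.0.1, HTSeq 0.6.1, DESeq2 and build hg38 were used. The use of strand and the tool behind the FPKM values are not given in the sources used here. RNA was selected by poly(A) or rRNA removal, and the labels do not say which.

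Counts were analysed in edgeR 4.0.16 (R 4.3.3) with TMM scaling, filterByExpr (minimum count 10), which left 17537 genes, and the two-sided quasi-likelihood F test over all 4 libraries, with p-values adjusted over these genes by Benjamini-Hochberg. The call thresholds were 0.05 for the adjusted p and 1 for the size of the log2 fold change. The script was tested on simulated data. The SE is the log2 fold change divided by the square root of F, and CPM are TMM-scaled. Symbols were found for 60401 of 60612 gene IDs, and coordinates and exon lengths of 58394 come from GENCODE 29 (GRCh38). Promoter windows are RefSeq's (GRCh38.p14), searched over the 250 bases before the start on both strands. CAGATG and CAGCTG, forms of CANNTG, were also searched, and were in 2 and 4 of the 30 windows and in 12.2% and 14% of all windows.

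The 36 genes, the linked lists and the marker lists were chosen with earlier results of these data known. Values per library are given for the genes called and for CTNNB1, APC, AXIN1, AXIN2, LRP5, LRP6, LEF1, TCF7, TCF7L1, TCF7L2, RNF43, ZNRF3, NKD1 and NKD2, the other tested genes with their log2 fold change, and from each linked list the 3 largest changes in each direction past both thresholds. Genes named beyond this rule are said in the text to be picked with their values known, and the same holds for the values per library of a few more genes of the module. The alternatives were DESeq2 size factors, library size alone, no filter, a minimum mean of 1 CPM, a Wald test in DESeq2 1.42.0, the replicate number as a block, limma 3.58.1 on log2(FPKM + 1) and log2(FPKM + 0.1) summed over the starts of genes whose mean reached 1 FPKM (10083 genes), adjusted p alone, glmTreat (against a fold change of 1 on the log2 scale), and leaving out each library, where the lone library is taken to vary like the others.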

Additional observations from a re-analysis of the deposited data

How the results depend on the processing

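WNT11, FZD7, TCF7L1, TCF7L2 and DKK1 were called under every scaling, filter and tool tried on the counts and without any 1 library, except that glmTreat against a log2 fold change of 1 did not call TCF7L1, TCF7 or any gene higher. The genes called lower (5) and higher (3) became 3 and 0 under glmTreat, 1 and 1 with limma on log2(FPKM + 1), 0 and 1 with log2(FPKM + 0.1), and 8 and 13 by adjusted p alone, and the FPKM fits tested 16 of the 36 genes. The gene called higher in both FPKM fits was WNT3, which the counts did not call, while DKK1 gave 0.97 and 0.995 there, under the fold threshold. FZD9 and SFRP5 were lost under DESeq2 and without the filter, which left 1 called higher. Leaving out 1 library gave 4 to 5 lower and 1 to 3 higher, with 1 higher without shControl replicate 1 or 2. TCF7 was lost without shControl replicate 1, FZD9 without shControl replicate 1 or 2 or shNeuroD1 replicate 1, and SFRP5 without shControl replicate 1 or 2 or shNeuroD1 replicate 2, where FZD5 was gained.

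Over all genes, 902 lower and 1541 higher became 448 and 576 under glmTreat, 201 and 187 with log2(FPKM + 1), 206 and 174 with log2(FPKM + 0.1), and 4939 and 4698 by adjusted p alone. The linked genes (8 and 8) became 3 and 5, 3 and 2, 3 and 2, and 34 and 28 under the same alternatives in turn.

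Direction turned in genes that had not passed the test, and in WNT2B with FPKM. WNT2B gave -0.12 with log2(FPKM + 1) and -0.13 with log2(FPKM + 0.1). WNT5A gave 0.10 and WNT6 0.046 under library size alone, and WNT6 gave 0.0043 and 0.036 with FPKM. Leaving out 1 library, AXIN2 ranged from -0.28 to 0.014, WNT3 from -0.12 to 0.14, WNT5A from -0.26 to 0.19, WNT5B from -0.043 to 0.10, WNT6 from -0.38 to 0.19, FZD6 from -0.025 to 0.47 and LRP6 from -0.0042 to 0.046. The cause of these turns was not tested. Outside the fits without a library, 188 other values for single genes kept both their side and whether they passed the adjusted p. A further 29 kept their side but lost the adjusted p, and 4 kept their side and gained it.

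Deviations from the group means had a correlation of 0.0158 over 17537 genes between same-numbered libraries. This showed no shared deviation by number, but 2 libraries per group cannot show that they were unpaired. With the replicate number as a block, 5 genes were called lower and 2 higher, without FZD9 (log2 fold change 1.00, edgeR adjusted p 0.0025). The calls rest on 2 libraries per group, and those of FZD9 and SFRP5 on 22 to 54 and 5 to 22 counts per library.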
